A study of Homo sapiens with 24 samples.

Results

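The libraries described here came from the cGAS KO clone of SK-GT-4, a human esophageal adenocarcinoma cell line, treated for 48 h with DMSO or with 0.5 µM MPS1i (reversine). They are 6 of the 24 libraries of the series, chosen by cell line and genotype, with 3 DMSO and 3 reversine libraries, 1 of each from each of 3 batches stated in the labels, so that each reversine library was paired with the DMSO library of its batch. The clone was grown from a single cell after lentiviral delivery of Cas9 and a guide against CGAS, and any difference from another clone is therefore also a difference between clones. For comparison the 6 libraries of the SK-GT-4 Cas9 control clone, which expresses Cas9 and keeps cGAS, and the 6 libraries of the OE33 cGAS KO clone, from another esophageal adenocarcinoma line, were used, each with its own DMSO libraries and the same dose and time.

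MPS1, encoded by TTK, is the kinase that starts the spindle assembly checkpoint, and its inhibition lets cells divide before all chromosomes are attached. The missegregated chromosomes can form micronuclei, whose DNA is bound by cGAS, an enzyme that makes the messenger cGAMP, and cGAMP activates STING, with interferon and NF-κB signaling downstream. Reversine is a purine derivative. The aryl hydrocarbon receptor, whose targets are described first below, is a transcription factor that is activated by planar aromatic ligands, binds DNA as a dimer with ARNT and switches on CYP1A1 and CYP1B1.

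The knockout was made with a guide directed at the first exon of CGAS, a gene on the minus strand. The guide, taken from the study's guide table and shown because it defines the clone, lies on the plus strand of GRCh38 at chr6:73451711-73451730, within coding sequence of exon 1, and had 1 match on chromosome 6. In the following line the guide is in lower case and the PAM next to it in capitals.
CGAS guide: atccctccgtacgagaatggGGG

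CGAS itself (ENSG00000164430, chr6:73413515-73452276) was counted at 6.19, 4.27 and 3.56 CPM in the KO DMSO libraries of batches 1, 2 and 3, and at 4.54, 4.796 and 2.30 CPM in the KO reversine libraries. The 6 Cas9 libraries lay between 15.3 and 26.1 CPM, so the groups did not overlap and the level of the message was lower in every KO library. The count was not 0, with 43 to 118 reads per KO library, and RNA reads do not show whether protein was made. CPM is a gene's share of a library's counts, multiplied to a common total after scaling by the trimmed mean of M values (TMM), and they compare a gene between libraries, not genes with each other.

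STING1, the receptor of cGAMP, had 2.38, 6.02 and 6.74 CPM with DMSO and 5.38, 10.3 and 9.63 CPM with reversine. It was higher with reversine in 3 of 3 batches, with a log2 fold change of 0.76 (SE 0.36), and the groups overlapped. TTK, the gene of the inhibited kinase, had 48.0, 52.3 and 59.2 CPM with DMSO and 54.7, 46.6 and 44.3 CPM with reversine, a log2 fold change of -0.13 (SE 0.21) whose sign differed between batches.

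Total counts were between 19104804 and 23252700 in the 6 libraries. The DMSO library of batch 1 stood apart from the other 5. Its median correlation with the other libraries of its clone was 0.945, against 0.974 to 0.986, and 19113 genes were detected in it, against 21023 to 22296. In it short genes were counted high and long genes low, relative to the other 5 libraries, by a median of 0.764 log2 units for genes under 3230 bases and -0.70 log2 units for genes over 7540 bases. Reversine minus DMSO differences had an SD across 11039 genes of 0.923 log2 units in batch 1, 0.252 in batch 2 and 0.305 in batch 3, so batch 1 was far wider than the others. A similar pattern was seen in the Cas9 reversine library of batch 2, whose Spearman correlation of deviation with gene length across genes was -0.468, against -0.455 in the KO DMSO library of batch 1. Whether RNA quality had a part in this was not tested. Sample identity was not tested beyond CGAS, which was at the level of the KO clone in both batch 1 libraries. Over all genes tested, the KO DMSO library of batch 1 correlated with the Cas9 libraries at 0.942 to 0.966 and with the other KO libraries at 0.933 to 0.966. For the KO reversine library of batch 1 these values were 0.952 to 0.975 and 0.966 to 0.982. For the KO DMSO library of batch 3 they were 0.945 to 0.97 and 0.953 to 0.988. Both KO libraries of batch 1 also lay more than 2 log2 units below the KO libraries of batches 2 and 3, without overlap, for 225 of 10842 genes. Results that rest on batch 1 are given with and without it.

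Most markers of the labelled cell type were present. The summed level of 9 epithelial markers (EPCAM, CDH1, keratins and others) was 10000 to 19850 CPM with DMSO and 9239 to 11060 CPM with reversine, a sum carried by keratins, and the highest value was the DMSO library of batch 1. CDH1, the adhesion protein of epithelia, had 21.8 and 22.2 CPM in both libraries of batch 1 and 177 to 224 CPM in the other 4, and GRHL2 had at most 7 counts in any library. Of 10 leukocyte markers 7 had at most 3 counts in every library and 2 of these had none, with a sum of 7.35 to 10.7 CPM with DMSO and 3.74 to 13.0 CPM with reversine. Of 8 fibroblast markers 3, and of 6 endothelial markers 2, had at most 3 counts, with sums of 5.18 to 87.9 and 11.5 to 80.3 CPM for fibroblasts and of 7.20 to 12.7 and 5.97 to 19.8 CPM for endothelium. As these are bulk libraries, fewer cells of a kind and less RNA per cell cannot be told apart.

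The main question was which genes responded to reversine when cGAS was removed. No gene of the 22782 tested passed an adjusted p of 0.01 in edgeR's quasi-likelihood test of the 12 SK-GT-4 libraries. The smallest adjusted p was 0.966, in a fit with a block per batch. This block was shared by the KO and Cas9 clones, so batch differences of the KO clone alone stayed in the spread. At an unadjusted p under 0.05 there were 167 higher genes, 0.733% of those tested, and 150 lower genes, 0.658%. DESeq2 with the same design also called 0 genes, with 320 at an unadjusted p under 0.05. Without batch 1 no gene passed either, and 105 higher genes (0.461%) and 43 lower genes (0.189%) had an unadjusted p under 0.05. The biological coefficient of variation of the fit was 34%, and 28.7% without batch 1. Every KO log2 fold change taken from this fit below therefore has an adjusted p of at least 0.966. Single genes are described by their values, their standard errors and their batches. With a block per genotype and batch no gene passed in edgeR either (smallest adjusted p 0.854). Nor did any in the 6 KO libraries alone with their own block (smallest adjusted p 0.126).

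After the data were seen, the fit was repeated without the KO DMSO library of batch 1 and the Cas9 reversine library of batch 2, which leaves 10 libraries and 2 KO DMSO libraries. The KO reversine library of batch 1 and the Cas9 DMSO library of batch 2 then have no partner and are no longer compared within a pair. In this fit the coefficient of variation was 15.6% and 13 genes passed, 10 higher (0.0439%) and 3 lower (0.0132%). At an unadjusted p under 0.05 there were 263 higher (1.15%) and 208 lower genes (0.913%). Of the 13 genes that passed, 8 were pseudogenes or genes with a near-identical copy, whose reads the counting could split (among them U2AF1, PWP2, SPCS2P4 and EIF3C). The other 5 were CYP1A1, CYP1B1, CA8, TTC14 and BMF, each of them higher with reversine. DESeq2 on the same 10 libraries passed 7 genes, of which 2, the pseudogenes SPCS2P4 and MXRA7P1, were among the 13. The remaining 5 DESeq2 genes had a very low level, with a mean log2 CPM between -2.84 and -2.42, so no fold is given. In this fit edgeR gave every gene the shared spread, so its p values do not reflect the spread of each gene.

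Of the genes higher with reversine, CYP1A1 had the smallest p, and it and CYP1B1 are both targets of the aryl hydrocarbon receptor. CYP1A1 (ENSG00000140465, chr15:74719542-74725610), a monooxygenase that oxidizes aromatic compounds and the best known target of the receptor, had 7.86, 12.6 and 9.27 CPM with DMSO and 19.8, 36.3 and 31.8 CPM with reversine. Every reversine library was above every DMSO library, and the means were 9.90 ± 2.42 and 29.3 ± 8.57 CPM (SD, n = 3 each). The log2 fold change was 1.58 (SE 0.34), with 1.32, 1.52 and 1.77 in the 3 batches, and it was 1.66 (SE 0.29) without batch 1. In the fit of 10 libraries it was 1.38 (SE 0.20), with an adjusted p of 3.43e-08 in edgeR and of 0.0365 in DESeq2, which is above the threshold.

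The 250 bases before the RefSeq start of CYP1A1 are shown because this gene led the comparison. They lie at chr15:74725529-74725778 of GRCh38.p14 and are written 5′ to 3′ on the gene's minus strand, with the core GCGTG of the receptor's binding element, searched on both strands, in capitals.
CYP1A1 promoter: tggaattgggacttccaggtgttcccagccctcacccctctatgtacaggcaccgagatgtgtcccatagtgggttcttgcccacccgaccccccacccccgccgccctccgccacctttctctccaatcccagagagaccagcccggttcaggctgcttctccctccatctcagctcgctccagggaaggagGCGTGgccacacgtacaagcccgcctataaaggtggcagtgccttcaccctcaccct
This stretch held 1 match, 52 bases before the start. Of all 35116 RefSeq promoters of this length, 32.2% held the core at least once, so that a single match is common. Of the 7 targets 5 had a RefSeq promoter to search, all but CYP1B1 and ALDH3A1. AHRR had 1 and 2 matches at its 2 starts, TIPARP had 2 at 1 of its 3 starts, and CYP1A2 and NQO1 had none in this window.

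CYP1B1, a second monooxygenase of the same family, had 33.1, 31.0 and 23.2 CPM with DMSO and 60.1, 69.6 and 47.9 CPM with reversine. These groups also did not overlap, with a log2 fold change of 1.04 (SE 0.29) and 1.11 without batch 1. In the fit of 10 libraries CYP1B1 had a log2 fold change of 0.91 and an adjusted p of 0.00195 in edgeR and of 1 in DESeq2. ALDH3A1, an aldehyde dehydrogenase, had 78.9, 259 and 116 CPM with DMSO and 77.9, 551 and 224 CPM with reversine. It was about equal in batch 1 and higher with reversine in the other batches, with a log2 fold change of 0.79 that was 1.03 without batch 1. TIPARP, which ADP-ribosylates and represses the receptor, had 63.3, 85.7 and 105 CPM with DMSO and 191, 126 and 115 CPM with reversine, a log2 fold change of 0.69 that was 0.37 without batch 1. AHRR, the repressor of the receptor, had 4.23, 2.57 and 0.88 CPM with DMSO and 3.57, 4.43 and 2.35 CPM with reversine.

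Of the 7 targets in the list, 3 (CYP1A1, CYP1B1 and TIPARP) had reversine libraries that lay wholly above the DMSO libraries, against 2.27% of all genes tested. The median log2 fold change was 0.69 over the list and 0.04 over all genes tested, and without batch 1 it was 1.00 over the list. NQO1, which NRF2 also controls, had a log2 fold change of -0.18 and CYP1A2 at most 1 count in any of the 6 libraries. CYP1B1 and TIPARP have antisense neighbours, and whether the counting used strand is not given in the sources used here.

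**Figure D1:**
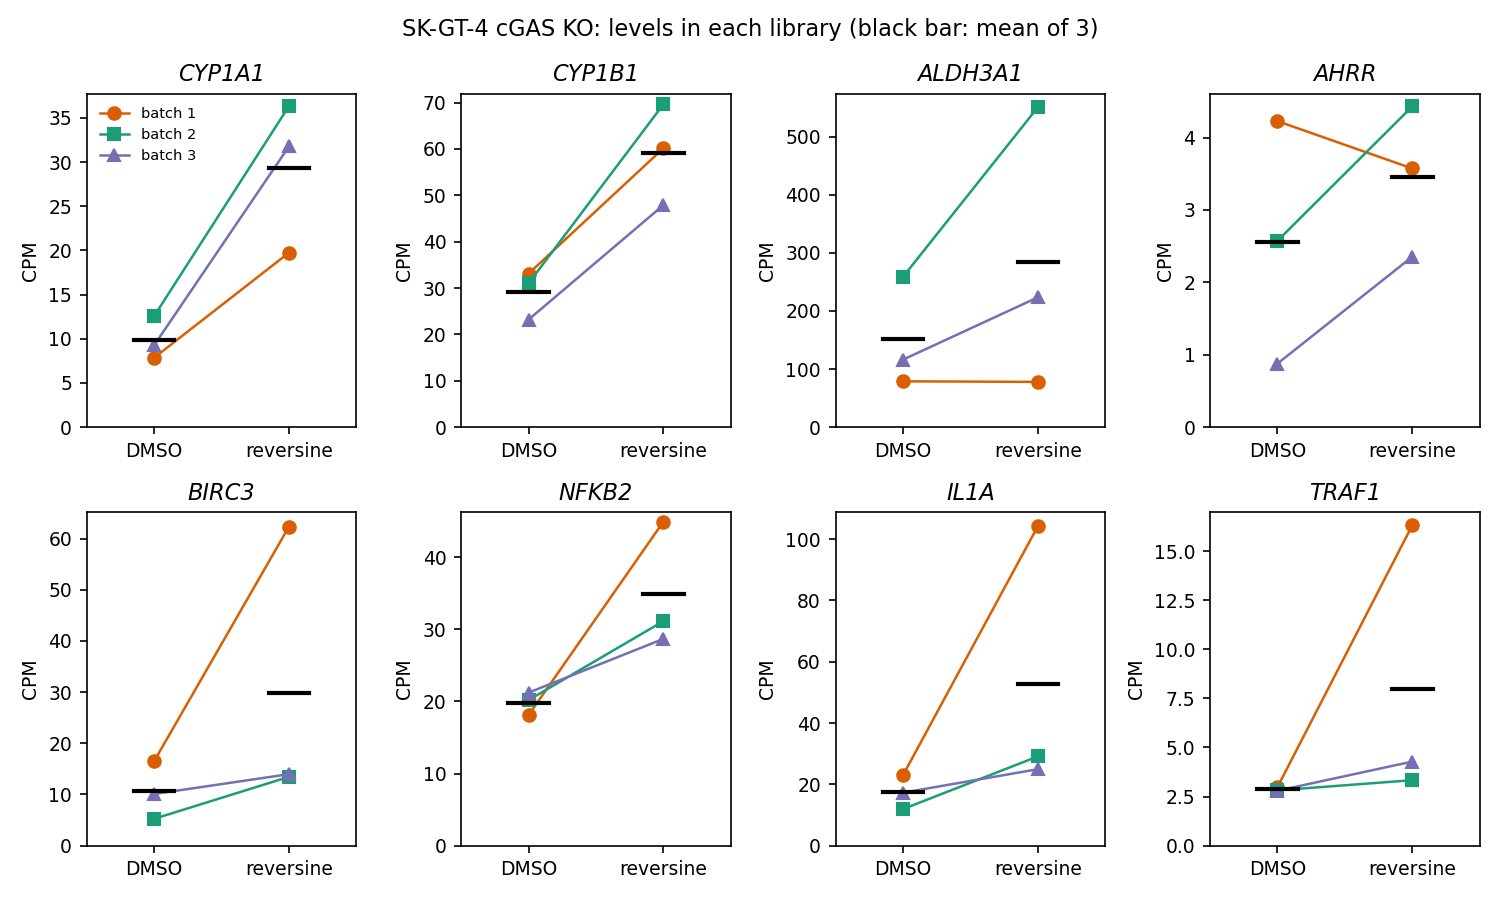
Level in CPM (vertical axes, from 0) of 4 aryl hydrocarbon receptor targets and 4 NF-κB genes in each SK-GT-4 cGAS KO library, with lines joining DMSO and reversine of a batch and black bars for the mean of 3. CYP1A1 and CYP1B1 are higher with reversine in all 3 batches, without overlap, and the lines of BIRC3, IL1A and TRAF1 are steepest in batch 1, where IL1A went from 22.98 to 104 CPM.

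NF-κB is a family of dimeric transcription factors held in the cytoplasm by IκB proteins, and its targets include its own subunits, inhibitors and inflammatory cytokines. Among the subunits NFKB2 (p100, the precursor of p52) had 18.1, 20.2 and 21.2 CPM with DMSO and 44.9, 31.1 and 28.7 CPM with reversine. The groups did not overlap, and the log2 fold change was 0.77 (SE 0.24), but it was 0.53 without batch 1. BIRC3 (ENSG00000023445, chr11:102317450-102339403), an inhibitor of apoptosis and ubiquitin ligase of this pathway, had 16.5, 5.24 and 10.1 CPM with DMSO and 62.3, 13.5 and 14.0 CPM with reversine. It was higher with reversine in each batch, with 1.91, 1.34 and 0.47 log2 units, a fitted log2 fold change of 1.18 (SE 0.36) and 0.87 without batch 1.

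IL1A, an alarmin cytokine, had 22.98, 11.9 and 17.3 CPM with DMSO and 104, 29.1 and 24.9 CPM with reversine. Its log2 fold change was 1.17 (SE 0.51) and 0.92 without batch 1. TRAF1, a signaling adaptor, had 2.98, 2.82 and 2.80 CPM with DMSO and 16.3, 3.33 and 4.28 CPM with reversine, so that most of its difference came from batch 1, and its log2 fold change of 1.08 was 0.43 without that batch. The chemokine CXCL8, by contrast, had overlapping groups with signs that differed between batches, with 148, 33.8 and 134 CPM with DMSO and 143, 49.2 and 131 CPM with reversine.

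The 250 bases before the RefSeq start of BIRC3 are shown because BIRC3 had the smallest p of the NF-κB list. They lie at chr11:102317234-102317483 of GRCh38.p14 on the plus strand, with the match to the κB motif, searched on both strands, in capitals.
BIRC3 promoter: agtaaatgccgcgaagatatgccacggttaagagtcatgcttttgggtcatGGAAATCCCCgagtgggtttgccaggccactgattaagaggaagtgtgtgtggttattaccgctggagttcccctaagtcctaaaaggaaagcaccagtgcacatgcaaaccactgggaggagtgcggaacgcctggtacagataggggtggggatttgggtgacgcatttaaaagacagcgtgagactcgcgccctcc
The match lay 189 bases before the start, and 6.88% of all RefSeq promoters of this length held the motif. NFKB2 had 2 matches at 2 of its 3 starts, and IL1A and TRAF1 had none in this window.

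Of the 28 NF-κB genes, 4 had an unadjusted p under 0.05, all 4 higher, against 0.733% of all genes tested, and 2 did without batch 1, against 0.461%. In 3 of 3 batches 12 were higher, a pattern that 12% of all genes tested showed, and 4 were lower, against 12.3% of all genes. The 4 lower genes were NFKBIZ, CCL20, CXCL1 and CXCL2. The median log2 fold change of the list was 0.34, and 0.17 without batch 1. Of the 7 ligands of CXCR1 and CXCR2, the neutrophil chemokine receptors, none was higher in 3 of 3 batches and 2 were lower, with a median of -0.10 that was 0.04 without batch 1. Several of the 7 had few reads, with at most 1 count per library for CXCL5, 9 to 19 for CXCL2 and 13 to 46 for CXCL3. CXCL1 had 12.8, 6.07 and 7.07 CPM with DMSO and 12.5, 4.96 and 5.19 CPM with reversine.

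The interferon-stimulated genes were of interest because they are read as the output of cGAS and STING. Of the 44 tested, 18 were higher in 3 of 3 batches and 1 was lower, against 12% and 12.3% of all genes tested. A log2 fold change above 0 was seen for 31, against 12215 of all 22782 genes, and without batch 1 for 41, against 11406. The sizes were small, with a median of 0.31 that was 0.18 without batch 1. IFIT3 had 1.84, 5.29 and 3.12 CPM with DMSO and 6.85, 5.53 and 5.67 CPM with reversine (log2 fold change 0.77, SE 0.41, and 0.42 without batch 1). OASL had 0.42, 2.91 and 2.58 CPM with DMSO and 1.89, 4.51 and 4.44 CPM with reversine (0.89, SE 0.54, and 0.70 without batch 1). IFIT2 had 5.83, 6.36 and 3.29 CPM with DMSO and 6.47, 8.58 and 4.44 CPM with reversine, higher in each batch by a little.

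ISG15, a ubiquitin-like protein, went the other way in batch 1 alone, with 361 CPM in the DMSO library of that batch and 57.1 to 89.4 CPM in the other 5. Of all 44 genes RSAD2 alone had an unadjusted p under 0.05, and it rested on 0 counts in every DMSO library and at most 2 in a reversine library, so no fold is given. CCL5 likewise had at most 3 counts in any library. Within the cGAS–STING pathway itself 11 of 12 genes were tested, 0 had an unadjusted p under 0.05, and the median log2 fold change was -0.27, which was -0.04 without batch 1.

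Most genes of DNA replication and mitosis had log2 fold changes a little below 0. Of 35 genes of DNA replication and S phase, 15 were lower in 3 of 3 batches and 0 higher, and the groups did not overlap for 3 of them, GINS1, CCNE1 and E2F1, which were lower with reversine, against 1.7% of all genes tested. CCNE1, the cyclin of S phase entry, had 7.14, 6.31 and 6.14 CPM with DMSO and 4.71, 4.27 and 5.40 CPM with reversine. PCNA, the sliding clamp of DNA polymerase, had 793, 290 and 373 CPM with DMSO and 290, 239 and 289 CPM with reversine. Its log2 fold change of -0.76 (SE 0.37) was -0.33 without batch 1. POLE2, a subunit of polymerase epsilon, had the smallest p of the list (log2 fold change -0.48, SE 0.22). The median of the list was -0.16, and -0.19 without batch 1.

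Of 21 spindle checkpoint genes 9 were lower in 3 of 3 batches and 0 higher, with a median of -0.17 that was -0.22 without batch 1. AURKB, the kinase that corrects faulty attachments, had 229, 94.8 and 133 CPM with DMSO and 116, 70.3 and 105 CPM with reversine. Of 35 genes of G2/M and mitosis 12 were lower in 3 of 3 batches and 1, PRC1, was higher, with a median of -0.12 that was -0.21 without batch 1. CENPA, the centromeric histone, had 83.2, 56.9 and 70.9 CPM with DMSO and 66.2, 40.2 and 47.9 CPM with reversine, which gave a log2 fold change of -0.45 (SE 0.25) and of -0.54 without batch 1. PRC1 had under 2 CPM in each of the 6 libraries. Among the 11039 genes with a mean log2 CPM of at least 2, where most of these genes lie, 15.2% were lower and 12.6% higher in 3 of 3 batches, and groups did not overlap for 0.852% in the lower and 1.33% in the higher direction. Several of these genes were highest in the DMSO library of batch 1, as with PCNA and AURKB, and the part of that library's gene length pattern in the batch 1 values was not tested.

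**Figure D2:**
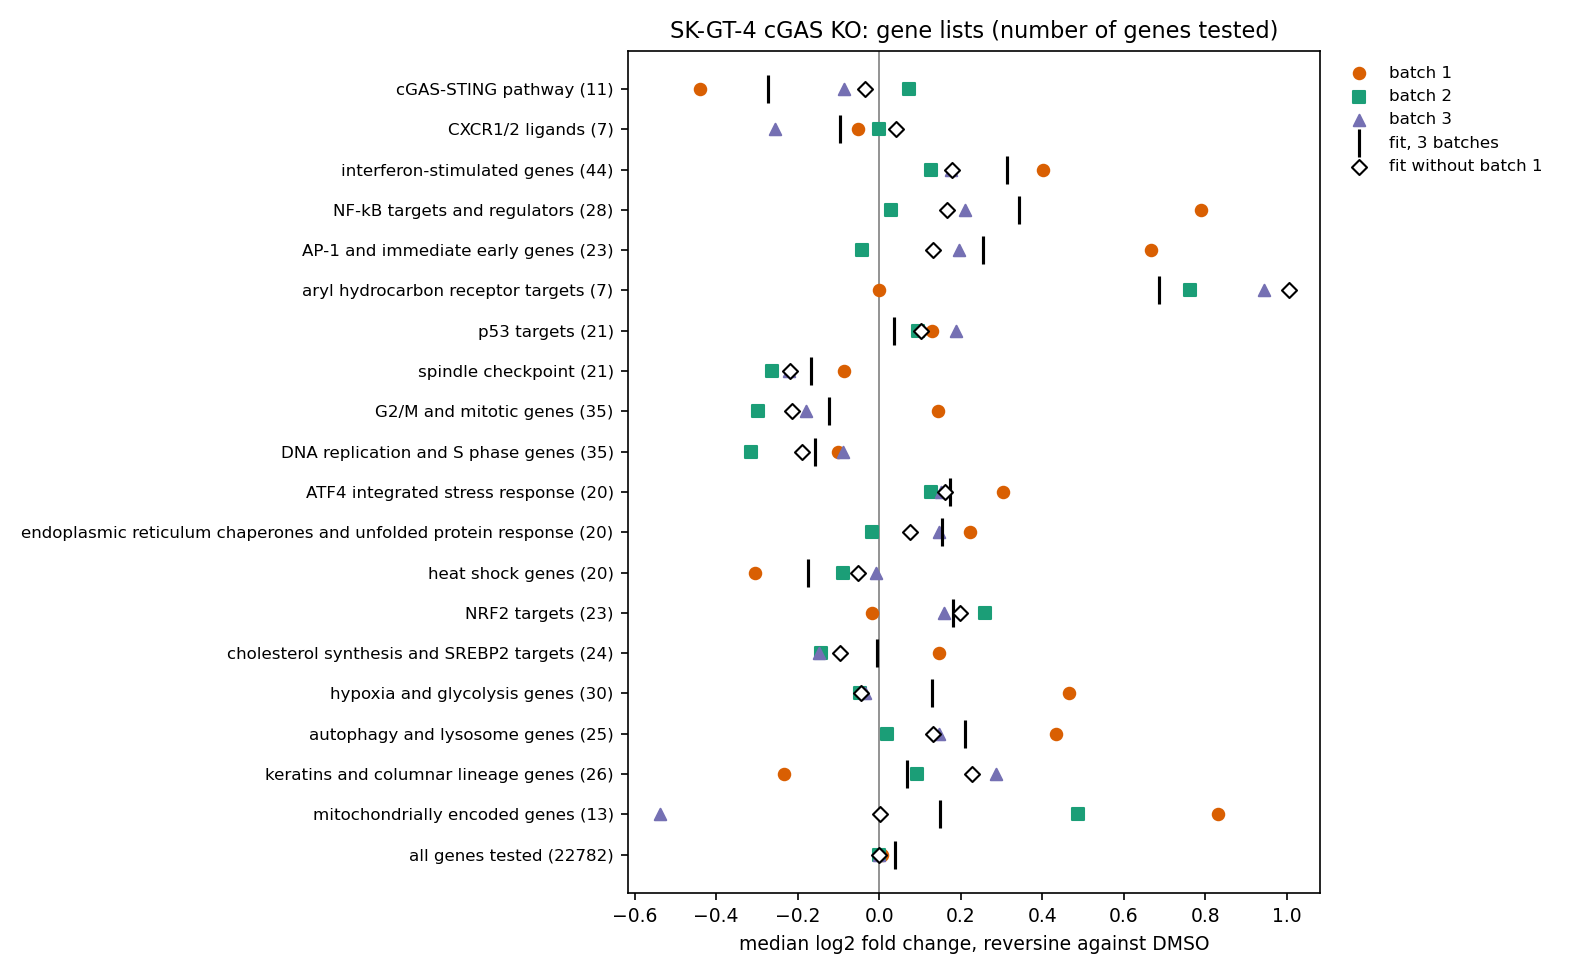
Median log2 fold change, reversine against DMSO, of each gene list in SK-GT-4 cGAS KO cells (horizontal axis), by batch (coloured symbols), in the fit of 3 batches (black bar) and in the fit without batch 1 (open diamond), with the number of genes tested in brackets. Of the lists plotted, the aryl hydrocarbon receptor targets lie farthest to the right without batch 1, at 1.00, and all 3 batch medians of the spindle checkpoint and S phase lists lie below 0.

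Other stress lists had medians between -0.17 and 0.26, beside 0.04 over all genes tested. Of all genes tested 0.733% were higher and 0.658% lower at an unadjusted p under 0.05. The 23 NRF2 targets, which answer oxidants, had a median log2 fold change of 0.18 (0.20 without batch 1), and 1 of them, HMOX1, had an unadjusted p under 0.05. HMOX1, which degrades heme, had 29.7, 29.3 and 19.0 CPM with DMSO and 46.0, 39.8 and 23.8 CPM with reversine (log2 fold change 0.47, SE 0.21, and 0.39 without batch 1). Of 25 genes of autophagy and lysosomes (median 0.21, and 0.13 without batch 1) 1, GABARAPL1, had an unadjusted p under 0.05. GABARAPL1, a protein of the autophagosome membrane, had 8.51, 17.4 and 15.8 CPM with DMSO and 25.3, 31.3 and 18.8 CPM with reversine, without overlap (0.84, SE 0.30, and 0.57 without batch 1). The 20 ATF4 targets had a median of 0.17, the 20 genes of the endoplasmic reticulum 0.16, the 20 heat shock genes -0.17 and the 23 immediate early genes 0.26, and in each of these lists 0 had an unadjusted p under 0.05. Without batch 1 these medians were 0.16, 0.08, -0.05 and 0.13.

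Of 21 p53 targets tested (median 0.04) 1, FDXR, had an unadjusted p under 0.05 and was lower, against 0.658% of all genes tested. FDXR had 237, 123 and 118 CPM with DMSO and 69.5, 105 and 103 CPM with reversine. Its log2 fold change of -0.79 was -0.21 without batch 1, so that its size came from 1 batch. CDKN1A, the cell cycle inhibitor p21, had 58.6, 177 and 174 CPM with DMSO and 88.5, 219 and 210 CPM with reversine, higher in each batch (0.36, SE 0.35). Of 30 genes of hypoxia and glycolysis (median 0.13) NDRG1 was higher and CA9 lower at an unadjusted p under 0.05, against 0.733% and 0.658% of all genes. The 24 genes of cholesterol synthesis had a median of -0.01, the 26 keratin and columnar genes tested 0.07 and the 13 mitochondrially encoded genes 0.15, each with 0 genes at an unadjusted p under 0.05. Without batch 1 the medians of the p53, hypoxia, cholesterol and keratin lists were 0.10, -0.05, -0.10 and 0.23. That of the mitochondrially encoded genes was 0.0031, with 0.83, 0.49 and -0.54 in the 3 batches, and -0.31 in the fit of 10 libraries. Listed genes that were not tested because of low counts were TREX1, CXCL10, XAF1, EDA2R, TFF3 and CDX1, besides the markers of other cell types. The median of the 9 epithelial markers was -0.38, and 0.02 without batch 1.

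Beyond the lists, TTC14 had 7.98, 12.7 and 15.4 CPM with DMSO and 21.7, 27.2 and 31.7 CPM with reversine, without overlap. Its log2 fold change was 1.16 (SE 0.29) and 1.07 without batch 1, and in the fit of 10 libraries 0.90 with an adjusted p of 0.00843 in edgeR and of 0.382 in DESeq2. NDRG1, a gene induced by hypoxia and stress, had 42.3, 49.5 and 28.8 CPM with DMSO and 63.0, 72.7 and 46.7 CPM with reversine. The groups overlapped because batches differed, but its batch differences were 0.57, 0.55 and 0.69 log2 units. Its log2 fold change was 0.61 (SE 0.20), and it was the 1 gene that passed when batches were first adjusted with ComBat-seq and DESeq2 was then used (0.60, adjusted p 0.00187).

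LOXL4, a lysyl oxidase that crosslinks matrix, had 2.62, 13.6 and 8.06 CPM with DMSO and 8.66, 21.4 and 13.6 CPM with reversine, and its log2 fold change of 1.02 was 0.70 without batch 1. BMF, which binds BCL2 proteins and promotes apoptosis, had 3.75, 4.90 and 2.03 CPM with DMSO and 5.59, 11.9 and 3.32 CPM with reversine. Its log2 fold change was 0.89 (SE 0.35), and in the fit of 10 libraries 1.16 with an adjusted p of 0.00947 in edgeR and of 0.634 in DESeq2. FBXO32, an F-box protein of a ubiquitin ligase, had 4.05, 3.01 and 2.85 CPM with DMSO and 6.56, 6.10 and 4.60 CPM with reversine, without overlap (0.81, SE 0.29). CA8, a relative of the carbonic anhydrases, had 7.98, 3.16 and 1.75 CPM with DMSO and 15.1, 3.41 and 3.96 CPM with reversine, and it is named because it passed in edgeR's fit of 10 libraries. Its highest KO library there was the reversine library of batch 1, at 15.1 CPM, which has no partner in that fit. The mucin gene MUC5AC was higher with reversine in each batch, but at 0.298 and 1.26 CPM in batch 1 and at 12.7 to 29.8 CPM in the others.

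Among the lower genes, CLDN11, a claudin of tight junctions, had 22.03, 18.3 and 16.3 CPM with DMSO and 11.7, 11.8 and 10.8 CPM with reversine. The groups did not overlap, and the log2 fold change was -0.72 (SE 0.23) and -0.62 without batch 1. PDGFC, a growth factor, had 53.3, 63.7 and 86.8 CPM with DMSO and 34.0, 48.2 and 65.6 CPM with reversine, with batch differences of -0.64, -0.40 and -0.41 log2 units. PRRT3 had 7.38, 4.42 and 4.44 CPM with DMSO and 2.94, 2.44 and 3.32 CPM with reversine, without overlap, and it too has an antisense neighbour. RMI2, part of the complex that dissolves crossed DNA strands with the helicase BLM, had 51.5, 31.7 and 30.1 CPM with DMSO and 25.1, 22.4 and 26.1 CPM with reversine, and its log2 fold change of -0.61 was -0.35 without batch 1. ZP3, a zona pellucida gene, had 28.7 CPM in the DMSO library of batch 1 and 3.91 to 6.17 CPM in the other 5. IGFBP2 rested on 4 to 13 counts per library. The smallest p among lower genes was that of the pseudogene SPCS2P4 (log2 fold change -1.58, SE 0.36), whose reads may belong to its parent gene.

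The effect in the KO clone was compared with that in the Cas9 clone by the difference of both log2 fold changes in the same fit. No gene passed an adjusted p of 0.01 in edgeR (smallest 0.823) or DESeq2. At an unadjusted p under 0.05 the effect of reversine was above that in Cas9 cells for 122 genes (0.536%) and below it for 428 (1.88%), and DESeq2 had 682 such genes in all. The share above, 22.2% of the 550, was 43.4% without batch 2 and 37.4% without the KO DMSO library of that batch, and the number was 204 without the Cas9 reversine library of batch 2. CYP1A1 had log2 fold changes of 1.58 in KO and 1.15 in Cas9 cells, a difference of 0.42 (SE 0.47), and CYP1B1 of 1.04 and 1.16, a difference of -0.11 (SE 0.41). For NFKB2 and BIRC3 the differences were -0.06 (SE 0.33) and 0.04 (SE 0.53). These errors allow differences of either sign. Over the 28 NF-κB genes the median log2 fold change was 0.34 in KO and 0.72 in Cas9 cells. The difference had a median of -0.15, with 1 gene below and 0 above at an unadjusted p under 0.05. In edgeR's fit of 10 libraries, with the shared spread, it was below 0 for 22 of 28, with a median of -0.26. There 10 were below and 0 above at an unadjusted p under 0.05, against 1.51% and 0.628% of all genes, and 0 passed the adjustment. Of the genes named for the KO clone, the pseudogenes MXRA7P1 (3.15, SE 0.66) and SPCS2P4 (-1.69, SE 0.51), and ZP3 (-2.23, SE 0.76), PRRT3 (-1.13, SE 0.48) and CLDN11 (-0.72, SE 0.33) were among those with a difference at an unadjusted p under 0.05. In the fit of 10 libraries the differences of ZP3, PRRT3 and CLDN11 shrank to -0.68 (SE 0.35), -0.45 (SE 0.34) and -0.40 (SE 0.26). Those of MXRA7P1 and SPCS2P4 were 2.32 and -1.25.

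ATF4 is the transcription factor of the integrated stress response, and its targets include amino acid synthesis genes. The median log2 fold changes over the 20 genes of this list were 0.17 in KO and 0.65 in Cas9 cells. Of these genes 5 (CHAC1, NUPR1, DDIT3, PCK2 and CEBPB) had a difference below 0 at an unadjusted p under 0.05, against 1.88% of all genes tested. In edgeR's fit of 10 libraries the difference was below 0 for all 20, with a median of -0.51, beside 0.0028 over all genes tested. In that fit 9 of the 20 had an unadjusted p under 0.05, against 1.51% of all genes. This was not particular to the ATF4 list. The difference was also below 0 for 23 of 24 cholesterol genes, 20 of 23 immediate early genes and 13 of 13 mitochondrially encoded genes. Of these, 7, 8 and 4 had an unadjusted p under 0.05. In the S phase list it was below 0 for 4 of 35, and in the spindle checkpoint list for 5 of 21. CHAC1, which degrades glutathione, had 15.7, 20.1 and 28.1 CPM with DMSO and 30.9, 22.3 and 31.1 CPM with reversine in KO cells. In Cas9 cells it had 8.76, 3.77 and 4.38 CPM with DMSO and 24.7, 19.4 and 12.7 CPM with reversine. The KO clone was thus above the Cas9 clone already with DMSO, without overlap, and both clones were closer to each other with reversine. The difference of the effects was -1.43 (SE 0.49, adjusted p 0.823), and in the fit of 10 libraries -1.56 with an adjusted p of 2.72e-05 in edgeR and of 0.0541 in DESeq2.

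KRT17, a keratin of stressed and basal epithelium, had a like pattern, with 353, 805 and 1054 CPM with DMSO and 330, 855 and 1000 CPM with reversine in KO cells, and 123, 151 and 170 against 267, 538 and 323 CPM in Cas9 cells. GDF15, a stress cytokine, had 19.7, 183 and 167 CPM with DMSO and 17.6, 243 and 226 CPM with reversine in KO cells, so that batch 1 was far below the others in both treatments. In Cas9 cells it had 23.5, 31.5 and 19.9 CPM with DMSO and 63.5, 185 and 56.6 CPM with reversine. In the fit of 10 libraries 13 genes passed for the difference between clones, 4 above (0.0176%) and 9 below (0.0395%), and 143 above (0.628%) and 343 below (1.51%) had an unadjusted p under 0.05. Of the 13 that passed, 8 were pseudogenes or had near-identical copies, and the other 5 were CHAC1, GDF15 (-1.65), KRT16 (-1.36), KRT17 (-1.30) and RASGRP3 (-2.88), all below. DESeq2 passed 2 genes there, MXRA7P1 and SMIM11, and none of these 5. For GDF15, whose KO reversine library of batch 1 was unpaired in that fit, the difference was -1.43 (SE 0.94) with all 12 libraries, and DESeq2 gave an adjusted p of 1 without both. KRT16 and KRT17 also have pseudogene relatives.

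**Figure D3:**
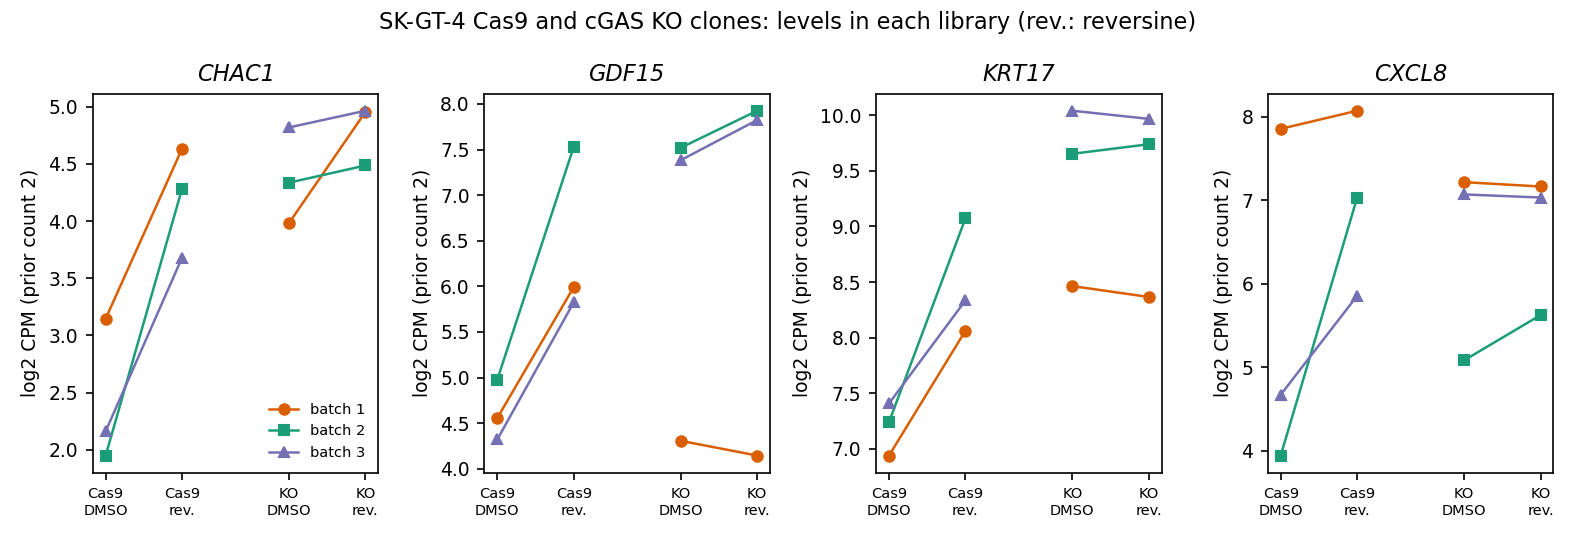
Level in log2 CPM (prior count 2) of CHAC1, GDF15, KRT17 and CXCL8 in the 12 SK-GT-4 libraries, with lines joining DMSO and reversine of a batch for the Cas9 and the cGAS KO clone. CHAC1 and KRT17 are higher with reversine in all 3 batches of the Cas9 clone and start higher in the KO clone, and the KO batch 1 lines of GDF15 lie near 4.31, below the other KO batches.

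A further list held 8 genes that the study's text named among the cGAS-dependent hits shared by both cell lines. They are only a part of the larger set that the study called dependent on cGAS in SK-GT-4. The list was chosen on these samples and is no independent evidence of direction. Its median was 0.08 in KO and 1.14 in Cas9 cells. Of the 8, 2 (CHAC1 and ZFAND2A) had a difference below 0 at an unadjusted p under 0.05, against 1.88% of all genes tested. The difference of ZFAND2A, -1.60, was -0.41 in the fit of 10 libraries. The 7 ligands of CXCR1 and CXCR2 had a median of -0.10 in KO and 1.396 in Cas9 cells, with 0 at an unadjusted p under 0.05 for the difference. These medians are the values of PPBP and CXCL3, genes of low level (mean log2 CPM of -0.86 and 0.55 over 10 libraries). CXCL5 had at most 1 count in any KO library. In edgeR's fit of 10 libraries, with the shared spread, the difference was below 0 for all 7, with a median of -1.02. There 4 (CXCL1, CXCL2, CXCL3 and CXCL8) had an unadjusted p under 0.05, against 1.51% of all genes tested in this direction, and 0 passed the adjustment. Of these 4, CXCL2 had 9 to 19 counts per KO library and CXCL3 had 13 to 46. For CXCL8 the Cas9 libraries had 231, 15.3 and 25.4 CPM with DMSO and 269, 130 and 57.8 CPM with reversine, and the difference of the effects was -1.34 (SE 0.91). The interferon-stimulated genes had medians of 0.31 in KO and 0.29 in Cas9 cells. In edgeR's fit of 10 libraries the KO median was 0.09, and the difference was below 0 for 31 of 44, with a median of -0.15. There 3 were below and 0 above at an unadjusted p under 0.05, against 1.51% and 0.628% of all genes. IFIT2, 1 of these genes, had a difference of -0.76 (SE 0.35) with 12 libraries and of -0.80 with 10. HMOX1 had 0.47 in KO and 1.18 in Cas9 cells, a difference of -0.71 (SE 0.30).

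H1-2, a linker histone, was among the genes below Cas9, with 22.1, 10.3 and 14.0 CPM with DMSO and 15.7, 15.4 and 15.4 CPM with reversine in KO cells, and log2 fold changes of 0.03 in KO and 1.92 in Cas9 cells (difference -1.88, SE 0.59). CLIC3 (difference -1.69, SE 0.54) and TSC22D3, a glucocorticoid-induced gene (-1.26, SE 0.41), were others. In the fit of 10 libraries the differences of H1-2, CLIC3 and TSC22D3 were -1.02, -0.92 and -1.05. Genes above Cas9 besides MXRA7P1 were EIF3C (1.86, SE 0.74), which has a near-identical paralog, the pseudogenes DENND10P1 (1.39) and PA2G4P4 (0.90), and ARHGAP19. ARHGAP19 had log2 fold changes of 0.05 in KO and -0.85 in Cas9 cells (difference 0.90, SE 0.35, and 0.80 with 10 libraries). DYNC2I1, a leading higher gene, had a difference of 0.98 (SE 0.42), and of 0.75 with 10 libraries.

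Last, the effect was compared with that in the cGAS KO clone of OE33 in a fit of all 24 libraries and 25181 genes. No gene passed an adjusted p of 0.01 in edgeR (smallest 1). At an unadjusted p under 0.05 the effect was above that in OE33 for 213 genes (0.846%) and below it for 277 (1.1%). Of the leading genes CYP1A1 had a log2 fold change of 1.45 (SE 0.36) in OE33 KO cells and a difference of 0.13 (SE 0.49), and CYP1B1 of 1.43 (SE 0.39) and a difference of -0.39 (SE 0.53). TTC14 had 0.82 (SE 0.23), BMF 1.17 (SE 0.35) and GABARAPL1 0.97 (SE 0.31) in OE33 KO cells, each higher with reversine there too.

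BIRC3, NFKB2 and NDRG1 had smaller values in the OE33 clone. The NF-κB list as a whole had a median of 0.19 there, against 0.34 in SK-GT-4 KO cells and 0.17 in these without batch 1. IL1A had 0.57 (SE 0.44) in OE33 KO cells and a difference of 0.60 (SE 0.62). BIRC3 had a log2 fold change of 0.13 (SE 0.27) there and a difference of 1.05 (SE 0.40), and NFKB2 of 0.20 (SE 0.19) and a difference of 0.56 (SE 0.27). NDRG1 had -0.36 (SE 0.21) there and a difference of 0.96 (SE 0.30). None of these differences passed the adjustment over all genes.

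**Figure D4:**
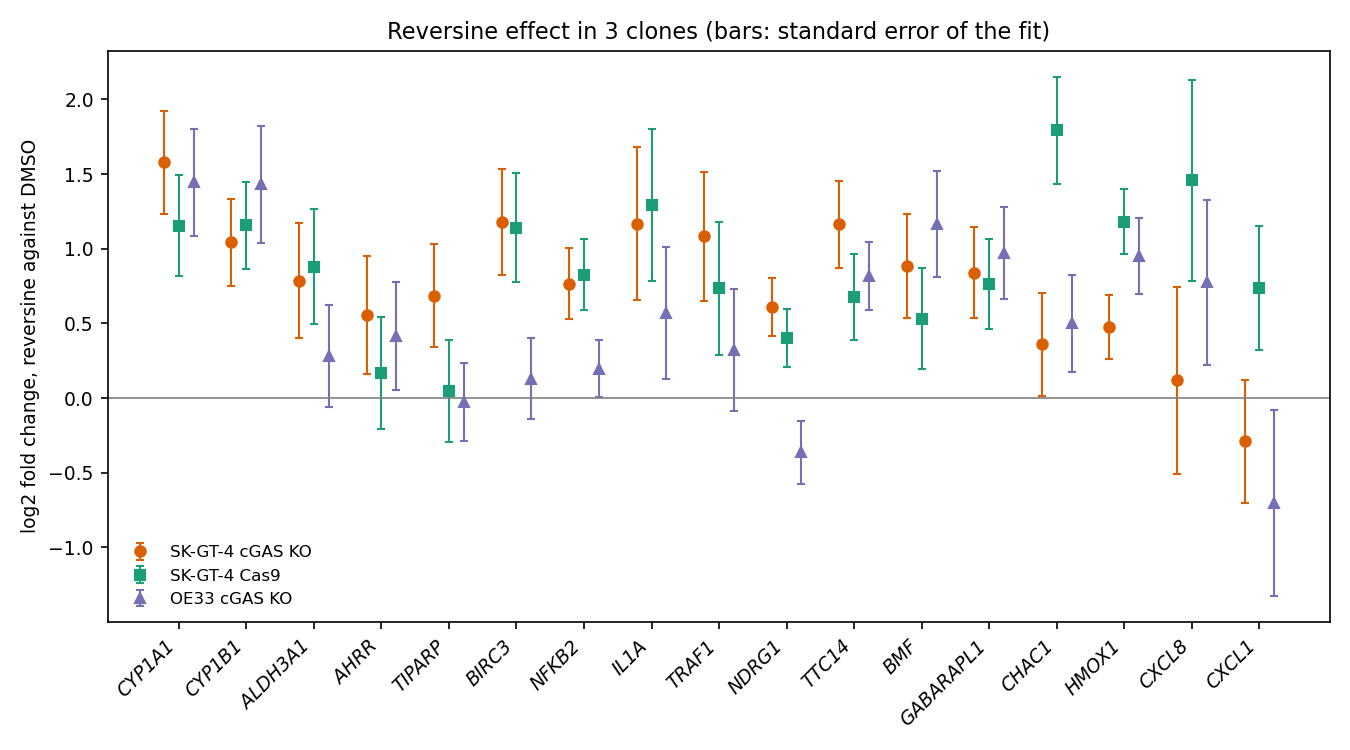
Log2 fold change, reversine against DMSO, with its standard error for 17 genes in SK-GT-4 cGAS KO (circles), SK-GT-4 Cas9 (squares) and OE33 cGAS KO cells (triangles). CYP1A1 and CYP1B1 lie between 1.04 and 1.58 in all 3 clones, BIRC3 and NFKB2 are near 0 in OE33 cGAS KO cells, and CHAC1 is at 0.36 in SK-GT-4 KO and 1.79 in Cas9 cells.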

How the data were processed

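Poly(A) RNA was sequenced in 6 SK-GT-4 cGAS KO libraries, with 18 others in the series. The authors mapped paired-end reads to GRCh38 with HISAT2 2.0.5 and deposited raw read counts per gene from featureCounts 1.5.0. The strand setting is not given in the sources used here. The study's filter kept 22782 of 58735 genes, those detected in 4 or more of the 12 SK-GT-4 libraries and summing to 5 counts or more. These were tested with edgeR 4.0.16 (R 4.3.3) on the raw counts after TMM scaling, in a model of group plus batch. Called genes had a Benjamini-Hochberg adjusted p of at most 0.01. The study corrected batches with ComBat before DESeq2, and a batch term was used here so that the values stayed counts. DESeq2 1.42.0 and sva 3.50.0 gave alternatives. Log2 CPM used a prior count of 2.

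The labels state batches, and DMSO and reversine libraries of the same batch deviated together (r across genes of 0.705, 0.773 and 0.497, against -0.702 to 0.257 between batches), so batch was kept as a block. In the main fit this block was shared by both clones and did not pair the KO libraries by themselves. All 66 pairs of SK-GT-4 libraries were checked for duplicates and differed by more than counting noise. Genes named in the text were CGAS, STING1 and TTK, up to 12 genes in each direction with the smallest p, 6 more without batch 1, 5 for the difference between clones (all with a mean log2 CPM of at least 2 and the same sign in 3 of 3 batches), and the leading 4 members of each list, or all members in short lists. Genes outside this rule (CA8, GDF15, KRT16, KRT17, RASGRP3, CDKN1A, ISG15, OE33 values and the members listed by count) were chosen after their values were seen. The members and lists were chosen with earlier results of these data known. Replicates are batches of 1 clone, so p values measure the spread between batches and not between clones.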

Additional observations from a re-analysis of the deposited data

How the results depend on the processing

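With 3 pairs and a coefficient of variation of 34%, the 12-library fit called no gene, so the counts at an unadjusted p under 0.05 are what the settings could move. For reversine against DMSO in KO cells (317 genes) they were 169 with filterByExpr, 610 with a block per genotype and batch, 925 in the 6 KO libraries alone and 721 after ComBat-seq, where 1 gene, NDRG1 (0.60), passed the adjustment. Without the replicate block, that is without any batch term, there were 385, of which 42.3% were higher, against 52.7% with it. The share of higher genes was also 39.3% with no filter and 67.8% with a GC and length correction, which was added after the data were seen. Leaving out a replicate gave 101 to 2141 genes (148 without batch 1, 2141 without batch 2 and 101 without batch 3), and leaving out 1 KO library gave 181 to 2637 genes (197 without DMSO 1, 2637 without DMSO 2 and 181 without reversine 2). Leaving out the Cas9 reversine library of batch 2, also added later, gave 914. Leaving out both that library and KO DMSO 1 gave 13 genes that passed, also 13 with robust estimation, and 7 with DESeq2, which had 159 at an unadjusted p under 0.05. There CYP1A1 (1.38), CYP1B1 (0.91), TTC14 (0.90), BMF (1.16) and the CHAC1 difference (-1.56) passed in edgeR, with the shared spread, and none of them in DESeq2. TTK changed sign without batch 3 (0.0035), with a range of -0.29 to 0.0035 over the batches left out.

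For the difference between KO and Cas9 cells (550 genes) the counts were 322 with filterByExpr, 895 with no filter, 948 with a block per genotype and batch, 1236 after ComBat-seq and 774 without the block. They were 286 to 549 without a replicate and 264 to 3290 without 1 KO library (3290 without DMSO 2, 264 without DMSO 1, 265 without reversine 1 and 279 without reversine 2), and 204 without the Cas9 reversine library of batch 2. Without both libraries 13 genes passed, 13 with robust estimation and 2 with DESeq2, which had 149 at an unadjusted p under 0.05. For the difference from OE33 KO cells (490 genes, 500 without the block) leaving out a replicate gave 263 to 1530, and 0 to 1 genes passed, the 1 being the pseudogene SPCS2P4 without batch 2. The cause of these shifts was not tested.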

Other observations

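Both batch 1 libraries of the KO clone, DMSO and reversine, also differed from batches 2 and 3 in the level of a set of genes. Of 10842 genes compared, 237 (2.19%) differed by more than 2 log2 units without overlap between batch 1 and the other 4 KO libraries, and 225 of these were lower in batch 1. In the Cas9 clone 7 of the 237 differed by as much in the same direction. The genes lower in batch 1 included CEACAM5, an epithelial adhesion glycoprotein, at 1.67 to 1.96 against 6.34 to 7.59 log2 CPM, TMPRSS4, a membrane serine protease, at -1.92 to -0.96 against 3.98 to 5.23 log2 CPM, and NOTCH3 at -0.53 to 1.24 against 4.52 to 6.29 log2 CPM. The gel-forming mucins MUC5AC (-1.34 to 0.44 against 3.68 to 4.90 log2 CPM) and MUC5B (0.36 to 1.02 against 3.90 to 5.54 log2 CPM) were lower as well, as was the mitochondrially encoded MT-ND5 (5.75 to 8.75 against 11.24 to 11.78 log2 CPM). These genes were chosen after their values were seen. The labels give no difference between the batches beyond their number.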
